A study of Mus musculus with 5 samples.

Results

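Nodal and activin signalling was followed through 10 genes: the ligand genes Nodal, Gdf3, Inhba and Inhbb, the co-receptor gene Tdgf1 (Cripto), the receptor genes Acvr1b and Acvr2b, and the antagonist genes Lefty1, Lefty2 and Fst. They were chosen by name as a pathway, with earlier results of these data known. Each was read from the probe set whose annotation gave that symbol alone. All 10 had such a probe set, 1 each, among 19938 genes with a probe set of their own symbol. RNA of each cell population was read on Affymetrix Mouse Gene 1.0 ST arrays, 5 in all, and the values are log2 intensities as deposited after the robust multi-array average (RMA) step and quantile normalization. Parental ESCs were the B6CBAF1 mouse embryonic stem cell line, which has C57BL/6 and CBA/ca parents, before any injection. The other populations were ESC-like cells, which grew out when cells of a subcutaneous teratoma were returned to ESC culture. Homologous cells came from parental ESCs injected alone into B6CBAF1 mice, and heterologous cells from the same ESCs injected alone into B6D2F1 mice, which have a DBA2 parent in place of CBA/ca. Co-injection cells came from ESCs injected into B6D2F1 mice together with B6D2F1 embryonic fibroblasts and were measured on 2 arrays, which the labels name batch 1 and batch 2. The sources used here do not give the ages of the mice.

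The cells on all 5 arrays shared a feeder layer of inactivated ICR fetal fibroblasts, so every RNA sample could hold fibroblast RNA. The paper's methods name a higher concentration of leukemia inhibitory factor for cells from teratomas than for parental ESCs. The sample labels, in contrast, give 1 concentration for all cultures. Which of them holds for these RNA samples is not known, and the part of this factor in the differences was not tested. The paper describes each ESC-like array as a line of its own, the co-injection pair as ESCs with fetal fibroblast batch 1 and batch 2. An SD with n = 2 is thus a spread between 2 co-injection lines. The heterologous array stands for the cells of a single teratoma. For the other ESC-like lines, the sources used here do not say how many teratomas lie behind each. With 1 array per condition outside the co-injection pair, differences between conditions have no replicate check, so they are given by size under a 2-fold rule without a p-value (a limma fit that takes its spread from the co-injection pair is given among the alternatives), and their precision is bounded by how few arrays there are. The spread was available from the co-injection pair alone. The median gap between batch 1 and batch 2 over all genes was 0.07 on the log2 scale and the 95th percentile of the gap was 0.25. Of the 10 genes, 9 had a smaller gap than that percentile, and Lefty2 had a larger one (0.38). No gene of the 10 differed more than 2-fold between the batches, and 0.00502% of all genes did. The 10 ESC markers, Pou5f1 and Nanog among them, lay above the median of all values (7.49) on every array, with a list mean from 11.18 in heterologous to 12.08 in parental cells.

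Nodal, GDF3 and the activins are secreted dimers of the TGF-beta family. Activins are built from the beta subunits that Inhba and Inhbb encode, and they bind a type II receptor such as ACVR2B, which then engages the type I receptor ACVR1B. Nodal and GDF3 use the same receptors but need the membrane-anchored co-receptor that Tdgf1 encodes. The active receptors phosphorylate SMAD2 and SMAD3, which enter the nucleus with SMAD4 and act with partners such as FOXH1. LEFTY1 and LEFTY2 block Nodal, are themselves induced by the pathway and so form a feedback loop, whereas follistatin, the product of Fst, captures activins outside the cell. In mouse ESCs the pathway is active at a low level through Nodal made by the cells themselves, and it patterns the epiblast after implantation.

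Among the ligands, the activin subunit genes differed most between the populations, and they did so in different ways. Inhba had a log2 value of 9.58 in parental ESCs, 9.24 in homologous cells and 11.64 in heterologous cells, against 7.49 and 7.56 in co-injection batches 1 and 2. The heterologous array was thus the highest and both co-injection arrays were the lowest, with the parental and homologous arrays between them. Both co-injection values lay close to the median of all values (7.49). Relative to parental ESCs, Inhba was 4.14-fold higher in heterologous cells, 1.27-fold lower in homologous cells and 4.16-fold lower in co-injection cells (log2 differences of 2.05, −0.34 and −2.06 ± 0.05, SD, n = 2). The co-injection mean lay 17.3-fold below the heterologous array and 3.28-fold below the homologous array. The gap between the co-injection arrays was 0.07 for this gene, smaller than each of these differences. That gap gives no spread for the conditions with 1 array.

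Inhbb, the gene of the other beta subunit, was highest in parental ESCs, at 9.80. Its value was 8.15 in homologous cells and 8.84 in heterologous cells, and 8.35 and 8.38 in the co-injection batches. All 4 ESC-like arrays therefore lay below the parental array, and the heterologous array was the nearest to it. Inhbb was 3.12-fold lower in homologous cells (log2 difference −1.64), 2.70-fold lower in co-injection cells (−1.43 ± 0.02, SD, n = 2) and 1.95-fold lower in heterologous cells (−0.96), the last just inside the 2-fold limit. The homologous and co-injection cells differed by 0.21, less than the 95th percentile of the co-injection gap over all genes (0.25). The gap of Inhbb itself between the co-injection arrays was 0.03.

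Because Inhba and Inhbb differed most among the ligands and took unlike patterns, the 250 bases before the start site of each are given here, 5′ to 3′ on the strand of the gene, as RefSeq gives them for GRCm38.p6 (chr13:16011601-16011850, plus strand, for Inhba, and chr1:119422249-119422498, minus strand, for Inhbb). Capitals would mark the motifs searched on both strands, AATNNACA for FOXH1 and CAGAC for the SMAD box, and neither window holds one, so both are in lower case throughout.
Inhba: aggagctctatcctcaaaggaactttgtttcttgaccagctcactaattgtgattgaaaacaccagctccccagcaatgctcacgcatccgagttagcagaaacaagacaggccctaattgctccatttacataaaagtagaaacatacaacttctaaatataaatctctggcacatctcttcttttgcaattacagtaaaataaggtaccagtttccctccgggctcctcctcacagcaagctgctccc
Inhbb: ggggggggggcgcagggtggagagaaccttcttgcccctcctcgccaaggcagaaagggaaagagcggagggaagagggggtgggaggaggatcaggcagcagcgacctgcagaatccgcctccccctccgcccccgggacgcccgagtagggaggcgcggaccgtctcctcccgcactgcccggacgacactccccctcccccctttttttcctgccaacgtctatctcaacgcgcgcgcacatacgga
The Inhba window has 43.2% G and C with 3 CpG sites, and the Inhbb window has 68.0% with 21 CpG sites, where the median over 32851 windows of that length was 52.4%. Of those windows, 10.9% hold AATNNACA and 42.2% hold CAGAC. The arrays measured no binding at these sites.

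Nodal and Gdf3, the ligand genes that depend on the co-receptor, differed less. Nodal was highest in parental ESCs (10.25), followed by co-injection batches 1 and 2 (10.12 and 9.95), homologous cells (9.94) and heterologous cells (9.72). All ESC-like arrays were below the parental array, by at most 0.53 (heterologous), within 2-fold. The homologous array and co-injection batch 2 were closer to each other than the 0.17 between the co-injection arrays. Gdf3, which is transcribed in undifferentiated ESCs, was at 11.57 in parental, 11.52 in homologous and 11.43 in heterologous cells and at 11.73 and 11.57 in the co-injection batches. The means of the conditions differed from parental ESCs by at most 0.14 in size, in heterologous cells, and co-injection batch 1 alone by 0.16, as much as the gap of 0.16 in the co-injection pair.

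**Figure D1:**
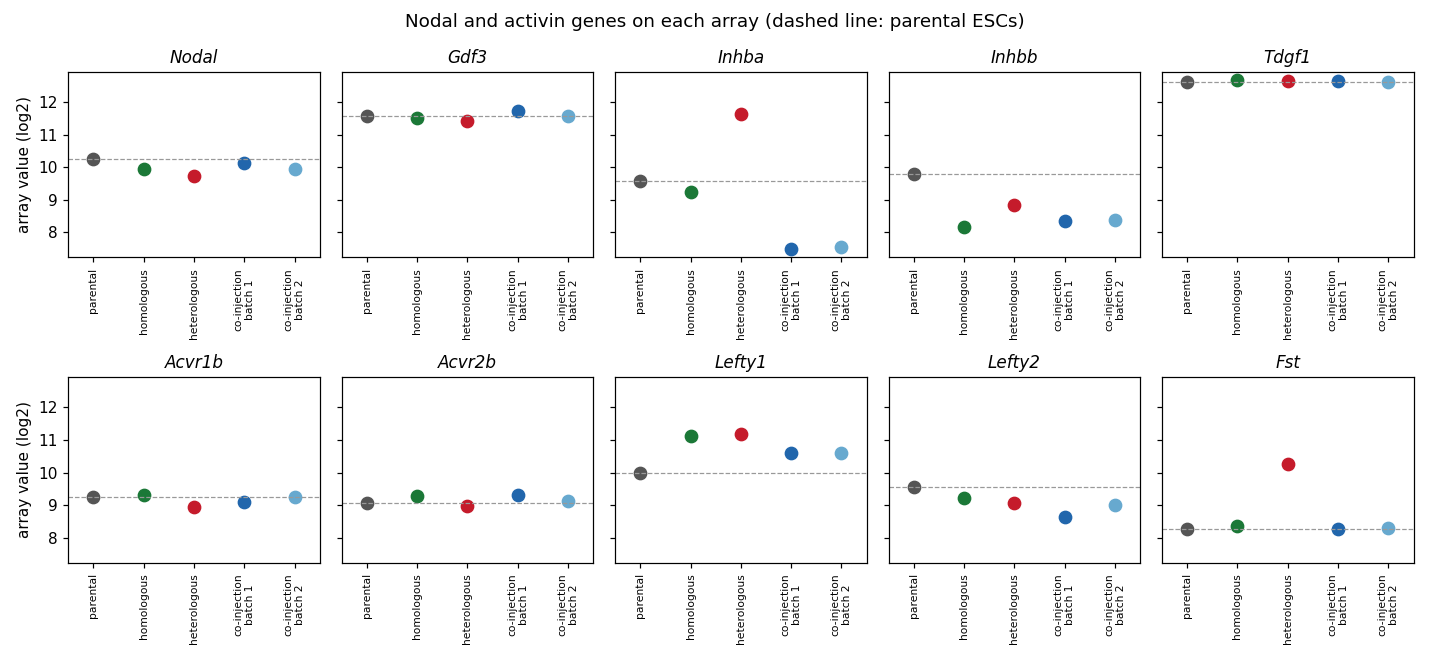
Log2 array value (vertical axis) of each of the 10 genes on the 5 arrays (horizontal axis); each point is 1 array and the dashed line marks parental ESCs. Inhba runs from 7.49 to 11.64 and Fst stands at 10.27 on the heterologous array alone, while the points of Tdgf1, Gdf3, Acvr1b and Acvr2b stay close to the dashed line.

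The co-receptor and receptor genes stayed within 2-fold in every comparison, and Tdgf1 had the smallest range of the 10 genes over the means of the conditions. Tdgf1 was at 12.63 in parental ESCs, 12.67 in homologous and 12.64 in heterologous cells, and 12.64 and 12.62 in the co-injection batches. These means spanned 0.04 for Tdgf1, less than the median gap of all genes between the co-injection arrays. Acvr1b, the type I receptor gene, was at 9.25 in parental, 9.30 in homologous and 8.96 in heterologous cells, against 9.11 and 9.24 in the co-injection batches. The heterologous array was its lowest, 0.29 below parental ESCs, and the other arrays lay within 0.20 of each other. Acvr2b, the type II receptor gene, was at 9.05 in parental, 9.29 in homologous and 8.99 in heterologous cells and at 9.30 and 9.14 in the co-injection batches. Its homologous value exceeded the parental one by 0.24, less than the 95th percentile of the co-injection gap over all genes (0.25). The gap of Acvr2b itself in the co-injection pair was 0.16. Its heterologous value differed from the parental one by −0.07, smaller in size than that gap.

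Gdf3, Lefty1, Lefty2 and Fst had no promoter window in the table used and were not searched. Of the 6 genes of the set with a window, Tdgf1 was the one that held the FOXH1 motif. Its 250 bases before the start site are shown for that reason (chr9:110946159-110946408 in GRCm38.p6, minus strand, RefSeq). Capitals mark AATTTACA at positions −127 and −101 and, between them, CAGAC at −113, counted from the start site to the first base of each match.
Tdgf1: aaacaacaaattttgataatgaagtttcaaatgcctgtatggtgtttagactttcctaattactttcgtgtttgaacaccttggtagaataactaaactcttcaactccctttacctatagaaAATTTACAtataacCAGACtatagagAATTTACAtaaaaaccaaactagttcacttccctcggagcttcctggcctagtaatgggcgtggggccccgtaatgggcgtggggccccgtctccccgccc
The single other match was a CAGAC, read on the opposite strand, at −233 of Acvr2b. A match describes the letters of the window, and no binding was measured.

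The antagonist genes took 3 different patterns. Lefty1 was higher in every ESC-like array than in parental ESCs: it was at 9.98 in parental, 11.13 in homologous and 11.18 in heterologous cells and at 10.61 in both co-injection batches. The log2 difference from parental ESCs was 1.14 on the homologous and 1.19 on the heterologous array (2.21-fold and 2.29-fold), and the co-injection arrays, by 0.63, lay about midway. The equal values of the co-injection arrays are no estimate of the error of Lefty1, since 1768 of 35556 probe sets have identical values in these arrays.

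Lefty2 differed in the other direction. It was at 9.57 in parental, 9.23 in homologous and 9.07 in heterologous cells and at 8.64 and 9.01 in the co-injection batches. All ESC-like arrays lay below the parental one, by 0.34 to 0.74 in the means of the conditions, so none passed 2-fold. The co-injection arrays were 0.38 apart, the widest gap in the set, and the homologous, heterologous and batch 2 values lay within a range smaller than this gap. The coding sequences of Lefty1 and Lefty2 are closely alike, and whether their probe sets share probes was not tested here.

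Fst was higher in heterologous cells only, among the 4 conditions. Its value was 8.26 in parental, 8.37 in homologous and 10.27 in heterologous cells and 8.26 and 8.30 in the co-injection batches. The heterologous array exceeded parental ESCs 4.02-fold (log2 difference 2.01), and the co-injection mean lay 3.96-fold below the heterologous array. Homologous and co-injection cells were within 0.11 of parental ESCs. Thus the genes of an activin subunit, Inhba, and of the activin-binding protein follistatin were both about 4-fold higher in the same array, whereas in co-injection cells Inhba was lower and Fst was at the parental level.

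**Figure D2:**
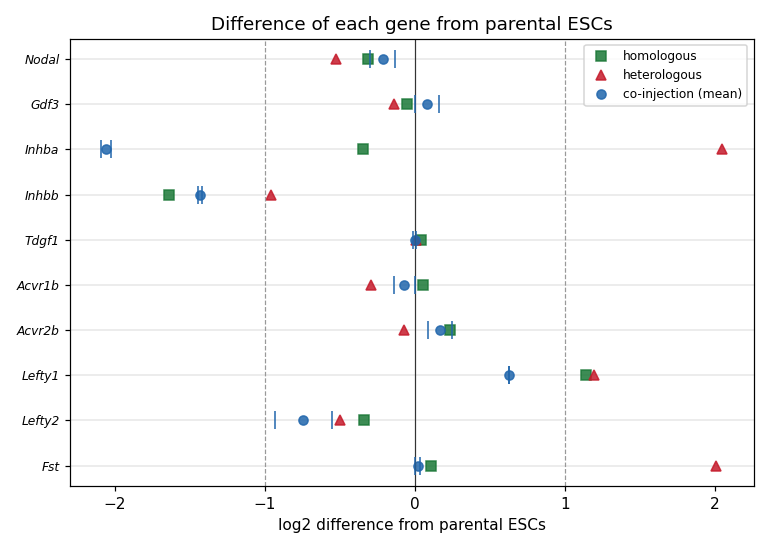
Log2 difference from parental ESCs (horizontal axis) of each of the 10 genes in homologous cells (squares), heterologous cells (triangles) and co-injection cells (circles, mean of 2 arrays, with a tick for each array); dashed lines mark 2-fold. Inhba lies beyond 2-fold on opposite sides in heterologous (2.05) and co-injection cells (−2.06), and Inhbb is below 0 in all 3 conditions.

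In all, 4 of the 10 genes, Inhba, Inhbb, Lefty1 and Fst, passed the 2-fold limit against parental ESCs in 1 condition or more, and the other 6 stayed within 2-fold in each of the 6 comparisons made. In homologous cells 1 gene was more than 2-fold higher (Lefty1) and 1 more than 2-fold lower (Inhbb), where 1.45% of all genes were higher and 1.6% lower by that rule. In heterologous cells 3 were higher (Inhba, Fst and Lefty1) and 0 lower, against 3.98% and 1.95% of all genes. In co-injection cells 0 were higher and 2 lower (Inhba and Inhbb), against 0.647% and 1.44%. The median difference of the 10 genes from parental ESCs was −0.0051 in homologous, −0.10 in heterologous and −0.035 in co-injection cells, beside −0.01, −0.04 and 0.04 over all genes. These comparisons share the 1 parental array, so a deviation of that array would enter each of them.

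Between the ESC-like populations, Inhba and Fst were more than 2-fold higher in heterologous than in homologous cells (2.40 and 1.90 on the log2 scale), where 2.41% of all genes were higher and 0.647% lower. The same genes were more than 2-fold lower in co-injection than in heterologous cells (−4.11 ± 0.05 and −1.99 ± 0.02, SD, n = 2), where 0.361% of all genes were higher and 2.99% lower. Between co-injection and homologous cells, Inhba was lower by more than 2-fold (−1.71), where 0.0752% of all genes were higher and 0.351% lower. The other 9 genes were within 2-fold in that comparison, Lefty1 with a difference of −0.51 among them.

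Fibroblast markers differed along with Inhba and Fst. Of 12 fibroblast markers 11 were measured, and 9 of them exceeded their parental value by more than 2-fold in heterologous cells, with a median log2 difference of 1.71, led by Postn (3.30) and Prrx1 (2.80). In co-injection cells 2 were more than 2-fold lower, Thy1 (−1.12) and Prrx1 (−1.07), with a median of −0.13, and in homologous cells none passed 2-fold (median 0.39). Over all genes, 3.98% were more than 2-fold higher in heterologous cells and 1.44% more than 2-fold lower in co-injection cells. The mean log2 value over the 11 markers was 7.53 in parental, 7.94 in homologous and 9.35 in heterologous cells and 7.21 and 7.14 in co-injection batches 1 and 2. Heterologous cells were the highest and co-injection cells the lowest by this mean, as by Inhba, but the homologous array was above the parental one for the markers and below it for Inhba. In co-injection cells Inhba lay farther below parental ESCs than each of the 11 markers. On an array no marker reads as 0, and 6 of the 11 were above the median of all values in parental ESCs. The part of fibroblast RNA in the Inhba and Fst differences was not tested, and in such bulk RNA a change in the share of a cell type and a change in RNA per cell cannot be told apart.

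**Figure D3:**
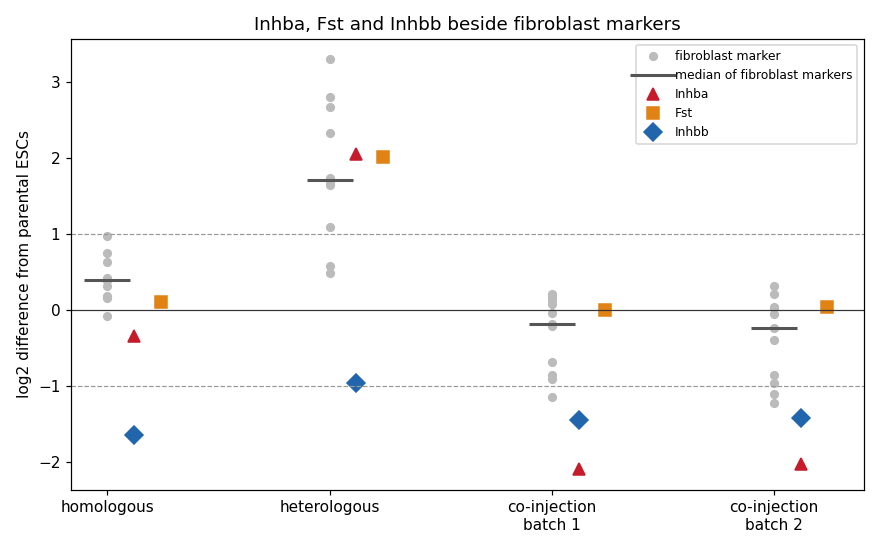
Log2 difference from parental ESCs (vertical axis) in the 4 ESC-like arrays (horizontal axis) for 11 fibroblast markers (grey points, with their median as a bar) and for Inhba, Fst and Inhbb (coloured). In heterologous cells Inhba (2.05) and Fst (2.01) lie among the markers, whose median is 1.71, while in both co-injection arrays Inhba lies below every marker.

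The ESC markers had a median difference of −0.91 in heterologous cells, with 5 of 10 more than 2-fold lower (Zfp42, Esrrb, Klf4, Fgf4 and Tfcp2l1), against medians of −0.62 in homologous and −0.61 in co-injection cells. Over all genes, 1.95% were more than 2-fold lower in heterologous cells. Of 8 macrophage markers Lyz2 was more than 2-fold higher in heterologous cells (1.16) and Fcgr3 more than 2-fold lower (−1.08), while Cd68 and Fcgr3 passed 2-fold downward in homologous cells and Fcgr3 in co-injection cells. Of 9 markers of primitive and visceral endoderm, Cubn was higher by 1.90 in heterologous and 1.14 in co-injection cells, and Sox7 was lower in all 3 conditions, by −2.23 in homologous cells, −1.85 in heterologous cells and −1.77 in co-injection cells. Of 6 endothelial markers Pecam1, which ESCs also express, was more than 2-fold lower in heterologous cells (−1.44), while Emcn differed the other way within 2-fold (0.92). With so few markers in the macrophage, endoderm and endothelial lists, these single genes are not set apart from the shares of all genes past 2-fold given above. The paper reports more aneuploidy in the ESC-like cells than in parental ESCs. The chromosomes that carry the 10 genes had median differences from parental ESCs between −0.05 and 0.07 in each condition. A change of copy number, in all or part of the cells, was not tested. For chromosome 13, which carries Inhba and Fst, the medians over 403 genes were 0.0008 in homologous, −0.0014 in heterologous and −0.0099 in co-injection cells.

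The genes whose 4 differences from parental ESCs were nearest to those of Inhba, by Euclidean distance over 11590 genes with a mean value above the median, were Flrt2 (distance 0.365), Cdh11 (0.71), a cadherin of mesenchymal cells, and Ptgs2 (0.958), the inducible cyclooxygenase. Flrt2 differed by −0.25 in homologous, 1.74 in heterologous and −1.93 and −2.05 in the co-injection arrays. Nearest to Fst were Gxylt2 (0.205), Cald1 (0.212), the actin-binding caldesmon, and Fhl2 (0.278), each at 1.78 to 2.19 in heterologous cells and within 0.27 of parental ESCs elsewhere. Nearest to Inhbb were Chga (0.242), which encodes chromogranin A, Zfhx2 (0.282) and Apcdd1 (0.302), an inhibitor of Wnt signalling. With 4 arrays behind each distance, these names describe likeness in these samples and no more.

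Of 42 further genes of the pathway 39 were measured. In homologous cells 1 was higher (Skil) and 1 lower (Pcsk6), in heterologous cells 1 was higher (Fstl1) and 2 were lower (Pcsk6 and Otx2), and in co-injection cells 1 was lower (Pcsk6) and 0 higher. With 39 genes, these counts are too small to set apart from the shares of all genes past 2-fold given above. Their median differences from parental ESCs were 0.07, 0.00 and 0.04. Between the ESC-like populations, Fstl1 and Pmepa1 were more than 2-fold higher and Otx2 more than 2-fold lower in heterologous than in homologous cells. The same 3 genes passed 2-fold in the other direction in co-injection against heterologous cells (−1.68 for Fstl1, −1.37 for Pmepa1 and 1.70 for Otx2), and none did between co-injection and homologous cells.

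Outside the cell, Pcsk6, whose product PACE4 is a convertase that cleaves the Nodal precursor, was lower in every ESC-like array. It was at 10.87 in parental, 9.56 in homologous and 9.29 in heterologous cells and at 9.76 and 9.81 in the co-injection batches, a log2 difference of −1.30, −1.58 and −1.08 from parental ESCs. Furin, the other convertase listed, differed by 0.04, 0.57 and −0.13. Fstl1, a follistatin-like glycoprotein that fibroblasts secrete, was at 9.65 in parental, 10.34 in homologous and 11.80 in heterologous cells and at 10.17 and 10.07 in the co-injection batches. Its difference of 2.15 in heterologous cells was close to that of Fst (2.01). None of the 3 other ligand genes measured (Inha, Inhbc and Inhbe) and none of the 5 other receptor genes (Acvr1c, Acvr2a, Acvr1, Cfc1 and Tgfbr3) passed 2-fold in any comparison. Inhbc, Inhbe, Acvr1c and Cfc1 lay below the median of all values (7.49) on every array, so their small differences do not show steady expression. Against parental ESCs, Acvr1 had the largest difference of these receptor genes, 0.83 in heterologous cells, and between co-injection and heterologous cells Tgfbr3 did (−0.94).

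Inside the cell, 1 of the 16 genes of the SMAD2 and SMAD3 branch, Skil, passed 2-fold against parental ESCs. Smad2 and Smad4 differed by at most 0.29 in size and Foxh1 by at most 0.13, while Smad3 differed by 0.68 in homologous, 0.88 in heterologous and 0.39 in co-injection cells. Skil, which encodes the SMAD corepressor SnoN and is induced by the pathway, was at 9.03 in parental, 10.15 in homologous and 9.83 in heterologous cells and at 9.94 and 9.87 in the co-injection batches. It was above parental ESCs in all ESC-like arrays, as Lefty1 was, with differences of 1.12, 0.81 and 0.88. Smad7, another feedback gene, differed by −0.04, −0.06 and −0.07. Pmepa1, also a feedback gene, took yet another pattern: it was lower in homologous (−0.85) and co-injection cells (−0.92) and higher in heterologous cells (0.45), and the heterologous array exceeded the homologous one by 1.31. The differences of Lefty1, Lefty2, Skil, Smad7 and Pmepa1 thus did not share a direction. Of these genes, Lefty1 and Skil alone passed 2-fold against parental ESCs, and both were higher.

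**Figure D4:**
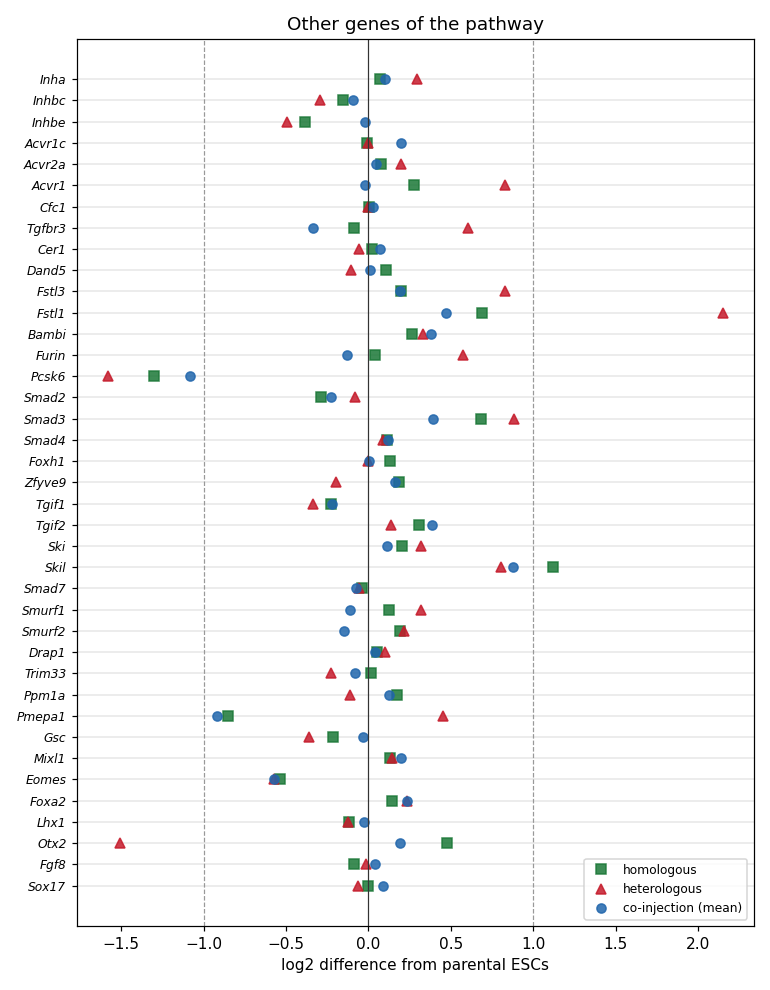
Log2 difference from parental ESCs (horizontal axis) of the 39 other pathway genes measured, in homologous cells (squares), heterologous cells (triangles) and co-injection cells (circles, mean of 2 arrays); dashed lines mark 2-fold. Most points lie between the dashed lines, and Pcsk6 (all 3 conditions), Fstl1 and Otx2 (heterologous) and Skil (homologous) lie outside them.

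Of 10 genes that Nodal and activin induce or pattern in the early embryo 8 were measured, and Otx2 was the one to pass 2-fold. Otx2, a homeobox gene of the epiblast and anterior brain, was at 9.25 in parental, 9.73 in homologous and 7.75 in heterologous cells and at 9.60 and 9.30 in the co-injection batches. The heterologous array was thus lower than all others, by 1.51 against parental ESCs. Eomes, a T-box gene of the primitive streak, differed by −0.54, −0.57 and −0.57 in homologous, heterologous and co-injection cells, within 2-fold. The other 6 genes (Gsc, Mixl1, Foxa2, Lhx1, Fgf8 and Sox17) differed by at most 0.36 in size in any condition. Lhx1 and Sox17 lay below the median of all values (7.49) on every array, and Mixl1 and Foxa2 lay close above it. At such levels a small difference does not show steady expression.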

How the data were processed

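Samples comprised 5 RNA preparations, each on its own Affymetrix Mouse Gene 1.0 ST array. The authors used GCOS for probe intensities and RMA, with a quantile step, for summaries, and deposited log2 values, from 2.77 to 13.97, for 35556 probe sets per array. Versions and genome build: not given in the sources used here. Array medians ran from 7.48 to 7.54. The quantile step removes a shift common to all probe sets, and values compress at both ends of the intensity range. Log2 values of different probe sets are not on a common scale, so differences were taken between arrays. Where a value is set beside the median of all values, that is a rough mark of level.

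Groups came from the sample labels. By the platform annotation, 21789 probe sets carry exactly 1 symbol, 1621 several and 12146 none. A gene is given by its brightest probe set with exactly 1 symbol. Differences are log2 values of an array, or of the co-injection mean, minus those of another. As in the paper, 2-fold (log2 difference over 1) was the limit, without a test. All 10 genes are given; further genes came from 5 pathway lists and 5 marker lists (ESC, fibroblast, endoderm, macrophage, endothelium), the pathway genes past 2-fold are named, markers are given as counts with examples, and other genes were named after their values were seen. Genes and lists were chosen with earlier results of these data known.

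Alternatives were 1.5-fold and 3-fold limits, the mean over probe sets, cyclic loess and centring on array medians. Others were leaving out dim genes or a co-injection array, and limma 3.58.1 (R 4.3.3) over all 5 arrays with Benjamini-Hochberg adjustment. Both the 2-fold rule and the limma fit were also run on simulated data. The simulation gave every array the spread of the co-injection pair, so it cannot show the spread between cultures in the other conditions. Background correction and slide were not examined, because scanner files were not used here. Python 3.11.15, numpy 2.4.6, pandas 2.3.3 and matplotlib 3.10.9 were used. Promoter windows and chromosomes came from RefSeq tables for GRCm38.p6.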

Additional observations from a re-analysis of the deposited data

Results flagged for a closer look

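Inhba differed from parental ESCs by more than 2-fold in opposite directions in heterologous cells (2.05) and in both co-injection arrays (−2.09 and −2.02), so that the co-injection mean lay −4.11 from the heterologous array on the log2 scale. The 2-fold rule gives no test of this difference, and the limma fit over all arrays, which takes its spread from the co-injection pair alone, gave an adjusted p of 0.146.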

How the results depend on the processing

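The number of genes of the 10 that passed the fold limit moved with that limit. At 3-fold it was 1 in homologous cells (Inhbb) in place of 2 and 1 in co-injection cells (Inhba) in place of 2, and at 1.5-fold it was 4 in co-injection cells, with Lefty1 and Lefty2 added. In heterologous cells it was 4 at 1.5-fold, with Inhbb added, and 2 at 3-fold, without Lefty1, in place of 3. Against homologous cells, heterologous cells had 3 at 1.5-fold, with Inhbb added, in place of 2. The shares of all genes past 1.5-fold and 3-fold were not counted. The counts at these limits therefore describe the 10 genes only and do not set them apart from other genes. Cyclic loess, centring of the arrays on their medians and leaving out a co-injection array left every count as it was, and no gene past 2-fold turned its direction under cyclic loess or without a co-injection array. The mean over probe sets left all values as they were, because each gene has 1 probe set. The filter on dim genes did so too, because the mean of each gene over the 5 arrays exceeded the median of all values. On co-injection batch 1 alone, Inhba was just below that median (7.492 against 7.494). The median of the 10 genes between co-injection and heterologous cells was −0.13, and leaving out a co-injection array moved it to between −0.22 and −0.037.

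The limma fit over all 5 arrays has 1 residual degree of freedom and called 0 of the 10 genes in each of the 6 comparisons (lowest adjusted p from 0.109 in heterologous against parental to 0.327 in co-injection against homologous cells). It also called 0 of 35556 probe sets in each, so it does not separate the genes that passed 2-fold from the others. Counts at an unadjusted p are not given, because the share of all probe sets at such a cutoff was not counted. No paired analysis was possible, because the labels name no pairing between arrays of different conditions and every condition but co-injection has 1 array.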
